A study of Mus musculus with 15 samples.

Results

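The response of primary mouse chondrocytes to SB202190, a compound used as an inhibitor of the p38 mitogen-activated protein kinases (MAPKs), was compared with that to its solvent DMSO. The arrays were chosen by their sample titles, which put 3 in the SB202190 group and 3 in the DMSO group, 6 of the 15 arrays of the series. All 15 carried RNA of chondrocytes from the tibiae, femurs and humeri of CD1 mouse embryos at embryonic day 15.5, which were cultured as a monolayer. The cells of the SB202190 group received 10 µM of the inhibitor for 24 h, and those of the DMSO group received the vehicle for the same time, all in medium with ascorbic acid and β-glycerophosphate. The treatment notes of the SB202190 samples call the agent SB90, so its identity rests on the sample titles. UO126, an inhibitor of the ERK-activating kinase MEK, and LY294002, an inhibitor of phosphatidylinositol 3-kinase (PI3K), were given at the same dose, each on 3 arrays. The other 3 arrays came from cells given the histone deacetylase inhibitor trichostatin A (TSA) and served here only in the estimate of spread. The design text of the series groups SB202190 with inhibitors of the MEK/ERK pathway, whereas the compound is commonly described as an inhibitor of p38 alpha and beta. No second p38 inhibitor, no inactive analog and no measurement of p38 activity is among the data analysed here, so the values describe cells given 10 µM SB202190 rather than cells shown to lack p38 activity. The study's methods describe 3 independent experiments, while the sample labels do not say that arrays with the same number share one. If the 3 arrays of a group were not separate cultures, the p-values cover only the spread between arrays, which may be technical.

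The p38 kinases are switched on by the kinases Map2k3 and Map2k6 when cells meet stress or inflammatory cytokines, and they act through further kinases such as Mapkapk2 and through transcription factors. In growth plate cartilage, chondrocytes divide, lay down a matrix of type II collagen and aggrecan, enlarge into hypertrophic cells that make type X collagen, and mineralize. Signaling by p38 is known for its part in hypertrophic differentiation and in the induction of inflammatory mediators in chondrocytes.

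Expression was measured as the MAS5 signal, the brightness of the probe set of a gene in linear units, scaled by the authors so that the trimmed mean of each array was 150. A gene is given below by the tested probe set with its highest mean signal, and levels of different genes are not set against each other because probe sets differ in brightness. Values are means ± SD of 3 arrays, differences are on the log2 scale with their standard error (SE), and adjusted p-values come from limma with Benjamini-Hochberg adjustment over 21765 probe sets. The 6 arrays had median signals of 33.9 to 40, and between 42.5% and 45% of probe sets were at 50 or above. Correlations of log2 signals were 0.977 to 0.981 among the SB202190 arrays, 0.967 to 0.976 among the DMSO arrays and 0.965 to 0.974 between them.

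The cells carried the markers of their label. Type II collagen (Col2a1) had signals of 3903, 6317 and 6880.1 in DMSO and 5489.8, 5430.1 and 5532 in SB202190, and type IX collagen (Col9a1) had 3718, 4767 and 5454 against 4424, 4568 and 4499. The SB202190 arrays lay within the DMSO range for both genes, and neither passed the test (adjusted p = 0.987 and 0.953). The cultures also had signal for genes listed for fibroblasts, such as Col1a1, with means of 4726 in DMSO and 3992 in SB202190. All 9 erythroid markers annotated on the array were under 50 on the 6 arrays. Of 26 macrophage and leukocyte markers, 13 were under 50 on all 6 arrays, and 11 were measured, that is, reached a mean of 50 in at least 1 of the 5 groups. None of the 11 passed the test with limma, and none had an unadjusted p under 0.05. Because a bulk RNA sample holds all cells of a culture, fewer cells of a type and less RNA per cell cannot be told apart in any value below.

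Few genes passed the test for SB202190 against DMSO, and most changes were small. Of 11751 genes tested, 236 (2.01%) rose and 178 (1.51%) fell, which corresponds to 334 and 285 probe sets. These shares are the background for the counts of every gene list below, and a single call in a long list is near them. Among these 619 probe sets, 27 rose and 56 fell by a factor of 2 or more. With the study's own kind of filter, a ratio of group means without a test, 671 of 20096 probe sets had a mean 1.4 times or more that of DMSO in SB202190 and 792 differed that much downward. At 2-fold, 40 were higher and 91 lower, and at 5-fold none was higher and 5 were lower. Each DMSO array set against the mean of the other two gave 486, 395 and 331 probe sets at 2-fold, but a single array varies more than a mean of 3, so these counts are no background for the 131. The fold count was 208 without DMSO replicate 1 and 205 without SB202190 replicate 3. The number of tested changes depended on single arrays: 285 probe sets passed without DMSO replicate 2, 321 without DMSO replicate 3, 213 without SB202190 replicate 1, 227 without SB202190 replicate 2 and 390 without SB202190 replicate 3. It was 210 with each array centred on its median and 181 with only these 2 groups in the fit, of which 81 were higher and 100 lower. Other settings raised it: quantile normalization gave 707, and a fit with the replicate number as a block gave 1224.

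The 14 largest rises among well-expressed genes were in genes of several kinds and included Mt1, Mgst1, Hmox1 and Gstm1, which handle metals, electrophiles and heme. The transmembrane glycoprotein Gpnmb, which resides in lysosomes and melanosomes, had signals of 152, 155 and 206 in DMSO and 515, 509 and 569.7 in SB202190. This was a 3.13-fold higher mean (log2 difference 1.65 ± 0.14, adjusted p = 1.39e-05), and every SB202190 array stood far above the highest DMSO array. Carbonic anhydrase 3 (Car3) rose from 82.2, 75.8 and 43.5 to 285, 217 and 207 (3.61-fold, log2 difference 1.85 ± 0.29, adjusted p = 0.00325). Its second tested probe set, of low signal, did not pass (1.09 ± 0.51, adjusted p = 0.312). Car3 is an enzyme typical of skeletal muscle and fat. The summed signal of the 34 skeletal muscle genes annotated on the array was 2057 to 4261 in DMSO and 2761 to 5132 in SB202190. That of the 10 annotated adipocyte genes was 1772 to 1909 and 2471 to 2879.9. Both sums include genes too low to be tested. The part of muscle and fat cells in the rise of Car3 was not tested.

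Metallothionein 1 (Mt1), a protein that binds zinc and copper, rose from 804, 1027 and 1122 to 2158, 1908 and 2342 (log2 difference 1.13 ± 0.17, adjusted p = 0.00293). Mgst1, a glutathione transferase of membranes, rose from 657, 576 and 459 to 1185, 1168 and 996 (1.00 ± 0.15, adjusted p = 0.00212). Heme oxygenase 1 (Hmox1), which degrades heme, had signals of 376, 560.0 and 646 in DMSO and 1162, 979 and 1073 in SB202190 (1.06 ± 0.23, adjusted p = 0.0231). The groups did not overlap for any of these 3 genes. Hmox1 was past the threshold without DMSO replicate 3, while without any other of the 6 arrays its adjusted p was 0.0555 to 0.0963. Vegfb, a ligand of the VEGF receptor Flt1, was 163, 215 and 197 in DMSO and 401, 373 and 382 in SB202190 (1.02 ± 0.12, adjusted p = 0.000237). Sned1, a secreted matrix protein, rose from 409, 435 and 351 to 903, 1061 and 725 (1.16 ± 0.19, adjusted p = 0.00504), and the inflammasome adaptor Pycard rose from 151, 122 and 101 to 299, 263 and 239.7 (1.12 ± 0.20, adjusted p = 0.00914). Pycard missed the threshold without SB202190 replicate 1 (adjusted p = 0.0516), as did the kinase Stk32b (0.94 ± 0.18, adjusted p = 0.0111, and 0.0565 without that array). Dzip1, a protein of the cilium base, Ddah2, which is related to an enzyme that degrades methylarginines, and the membrane adaptor Pag1 rose by 1.01 ± 0.15, 0.98 ± 0.14 and 0.97 ± 0.12 on the log2 scale. Map2k6 and Gstm1, the remaining genes of the 14, are described with their pathways below.

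The 14 largest falls were led by Prg4 and F13a1 and included further secreted proteins. Lubricin (Prg4), the lubricating proteoglycan of articular cartilage, fell from 352, 338 and 386 to 89.2, 129 and 90.7 (3.54-fold lower, log2 difference -1.82 ± 0.22, adjusted p = 0.000317). Coagulation factor XIII A (F13a1), a transglutaminase that hypertrophic chondrocytes express, fell from 197, 233 and 204 to 71.6, 63.9 and 62.6 (3.19-fold lower, -1.68 ± 0.16, adjusted p = 3.34e-05). Hyaluronan synthase 2 (Has2), which makes the hyaluronan of the cartilage matrix, fell from 559.9, 451 and 461 to 184, 187 and 179 (2.66-fold lower, -1.41 ± 0.11, adjusted p = 6.03e-06). The 3 SB202190 arrays lay close together for Has2, and below every DMSO array for all 3 genes. F13a1 is also a macrophage gene. The summed signal of the 26 macrophage and leukocyte genes annotated on the array was 1455 to 1601 in DMSO and 1469 to 1562 in SB202190. Of these genes, 13 were under 50 on all 6 arrays. The part of such cells in the fall of F13a1 was not tested.

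**Figure D1:**
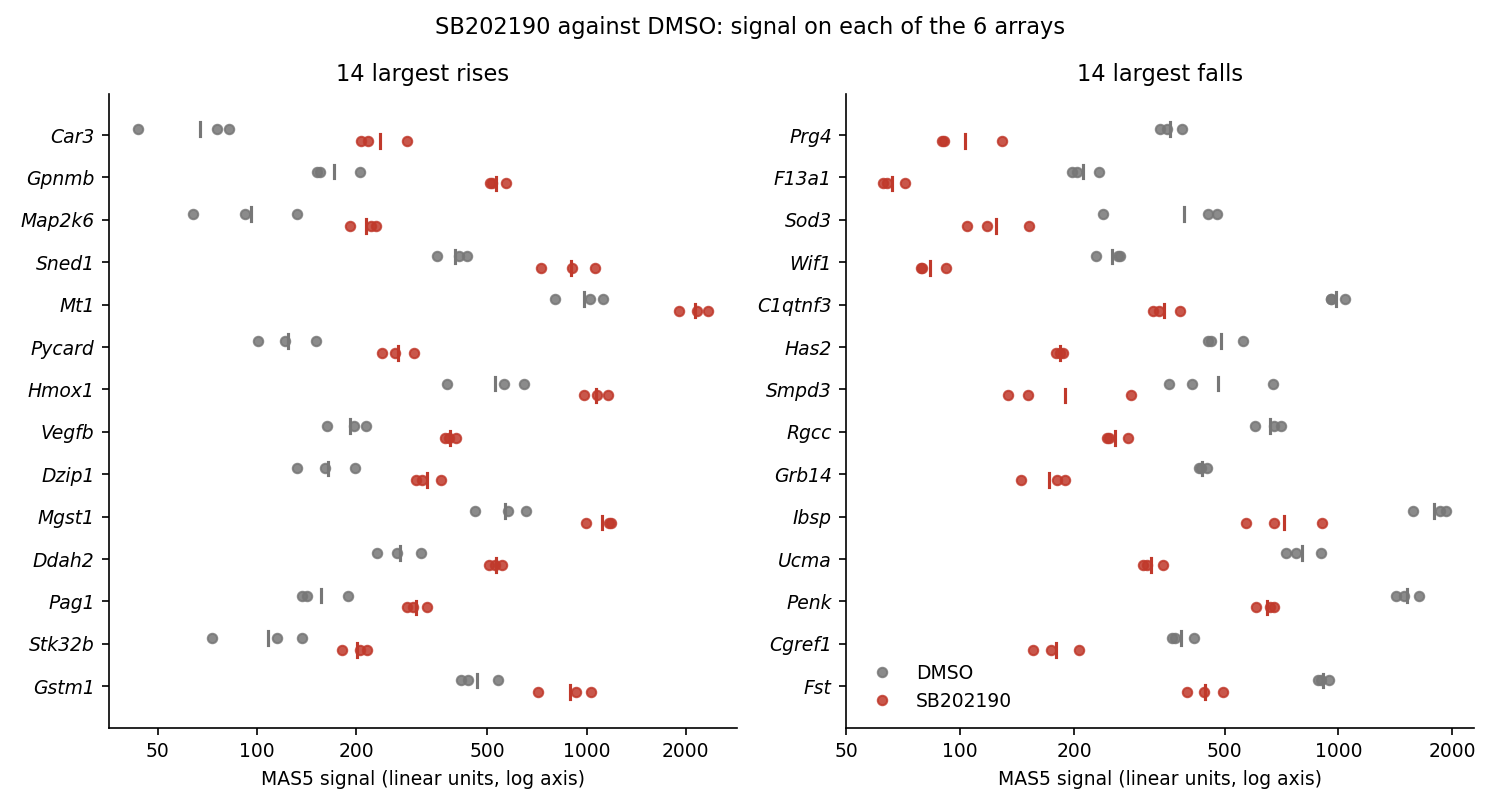
MAS5 signal (log axis) on each of the 3 DMSO and 3 SB202190 arrays for the 14 largest rises (left) and the 14 largest falls (right) of SB202190 against DMSO, with 1 row per gene, 1 point per array and a vertical tick at each group's mean. The arrays of the 2 groups do not overlap in any row, which the choice of these genes fixed; Gpnmb goes from at most 206 in DMSO to at least 509 in SB202190, and Prg4 from at least 338 to at most 129.

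Extracellular superoxide dismutase (Sod3) had signals of 239, 478 and 452 in DMSO and 104, 152 and 118 in SB202190 (-1.60 ± 0.25, adjusted p = 0.00338), and its second probe set also fell, from a mean of 141 to one far under 50, where the size of a fold is uncertain (adjusted p = 8.78e-06). The secreted protein C1qtnf3, also called cartducin, fell from 957, 954 and 1041 to 323, 382 and 335 (-1.51 ± 0.13, adjusted p = 1.84e-05). Proenkephalin (Penk), the precursor of the enkephalin peptides, fell from 1421, 1632 and 1491 to 607, 677 and 660.1 (-1.22 ± 0.098, adjusted p = 8.78e-06). Both are secreted, and for both the highest SB202190 array was below the lowest DMSO array. Ucma, a small matrix protein of immature chondrocytes, fell from 774, 725 and 899.7 to 304, 312 and 344 (-1.32 ± 0.12, adjusted p = 2.84e-05). Rgcc, a regulator of the cell cycle, fell from 705, 603 and 675 to 248, 244 and 277 (-1.37 ± 0.099, adjusted p = 5.56e-06), and Grb14, an adaptor that restrains the insulin receptor, fell from 434, 427 and 448 to 145, 179.8 and 189 (-1.36 ± 0.12, adjusted p = 1.39e-05). The growth regulator Cgref1 fell by 1.11 on the log2 scale (SE 0.12, adjusted p = 8.59e-05). Of the 28 genes named as largest rises and falls, 14 had further tested probe sets, 17 in all. Of these, 16 differed in the same direction, 10 of them past the threshold, and the second probe set of Stk32b was lower in SB202190 without passing (-0.50 ± 0.31, adjusted p = 0.477). With each array left out in turn, 23 of the 28 genes stayed past the threshold. The 5 others were Hmox1, Pycard and Stk32b, given above, and Ibsp and Smpd3, described with hypertrophy below.

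Among the kinases of the p38 pathway itself, transcripts of the p38 isoforms were not called, and a kinase and an activator upstream of them were higher. Mapk14, which encodes p38 alpha, had signals of 579, 469 and 565 in DMSO and 618, 594 and 582 in SB202190 (0.16 ± 0.12, adjusted p = 0.569), and its 3 further probe sets did not pass. Mapk13 had a mean of 77.6 ± 17.6 in DMSO and 77.6 ± 4.93 in SB202190, and Mapk11 and Mapk12 were under 50 on all 6 arrays. Map2k6, the kinase that phosphorylates and activates p38, rose from 132, 92.1 and 64.2 to 222, 229.6 and 192 (2.33-fold, 1.22 ± 0.21, adjusted p = 0.00535). With only the 2 groups in the fit its adjusted p was 0.0571. Map2k3, which encodes the other main activator, did not pass (0.098 ± 0.11, adjusted p = 0.723). Gadd45a, a stress-induced protein that binds the upstream kinase Map3k4, rose from 133, 149 and 148 to 284, 253 and 222 (adjusted p = 0.00301). Neither group overlapped the other for Map2k6 or Gadd45a. These were the 2 of 20 measured p38 kinases and upstream activators that passed, both upward, and the median of the 20 was 0.084 against 0.025 over all genes.

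Of 15 kinases and RNA-binding proteins downstream of p38, 1 rose and none fell, with a median of -0.028. The riser was Mknk2, a kinase that phosphorylates the translation factor eIF4E, with 818, 682 and 597 in DMSO and 1396, 1247 and 1173 in SB202190 (0.87 log2, adjusted p = 0.00194). All SB202190 arrays were above all DMSO arrays, although its second probe set did not pass (0.56 ± 0.26, adjusted p = 0.298). Of 16 transcription factors acted on by p38, none rose and Nfatc4 fell (-0.80, adjusted p = 0.0192). Without DMSO replicate 1 or 2 or SB202190 replicate 2 or 3, the adjusted p of Nfatc4 was 0.0583 to 0.0721. The medians of both lists change sign when each array is centred on its median.

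Phosphatases and feedback inhibitors of MAPK signaling had mostly positive differences and few calls. Of 11 dual-specificity phosphatases, which dephosphorylate MAPKs, 9 had higher means in SB202190 and the median was 0.37, but 1 passed: Dusp16, which acts on JNK and p38 (0.57, adjusted p = 0.0373). Of 15 ERK feedback genes, 11 had positive differences (median 0.28) and 1 passed, the FGF receptor antagonist Il17rd, with 61.2, 59.1 and 44.3 against 104, 88.6 and 79.1 (0.73 ± 0.17, adjusted p = 0.0301). Dusp16 was past the threshold without SB202190 replicate 3 but not without any other array (adjusted p 0.0803 to 0.179). Il17rd kept its call without DMSO replicate 1 or SB202190 replicate 3, and had adjusted p-values of 0.0583 to 0.144 without the others.

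Of the 41 gene lists, the one with the most members that rose was that of targets of Nrf2 (Nfe2l2), a transcription factor that is held in the cytoplasm by Keap1 and turns on genes for glutathione synthesis and detoxification when electrophiles or oxidants release it. Of 21 measured targets, 11 rose and none fell, beside 2.01% and 1.51% of all genes, and the median difference was 0.40 against 0.025 for all genes. This list was not tested as a set. Sulfiredoxin (Srxn1), which repairs oxidized peroxiredoxins, rose from 366, 318 and 456 to 655, 706 and 772 (0.92, adjusted p = 0.000531). Gclc, the catalytic subunit of the enzyme that limits glutathione synthesis, rose from 339, 284 and 285 to 493, 526 and 535 (0.78, adjusted p = 0.000769). The glutathione transferases Gstm1, with 438, 539 and 416 against 931, 1031 and 714, and Gsta4, with 445, 482 and 385 against 733, 748 and 661, rose by 0.94 and 0.71 (adjusted p = 0.000896 and 0.00135). For none of these 4 genes did a DMSO array reach the lowest SB202190 array. Gstm1 belongs to a family of closely similar genes whose transcripts probe sets can share.

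The other members that rose were the carbonyl reductase Cbr3 (0.88, adjusted p = 0.00503), thioredoxin reductase Txnrd1 (0.58, adjusted p = 0.0099), the pentose phosphate enzyme Pgd (0.40, adjusted p = 0.014), Hmox1, aldehyde oxidase Aox1 (0.96, adjusted p = 0.0314), Gclm, the regulatory partner of Gclc (0.61, adjusted p = 0.0419), and Keap1 (0.41, adjusted p = 0.0491). Keap1 and Gclm kept their calls without DMSO replicate 3 and Aox1 without DMSO replicate 2, and without any other array their adjusted p-values were 0.0623 to 0.155. Txnrd1 and Pgd lost their calls without SB202190 replicate 1 (adjusted p = 0.0513 and 0.0662). The number of targets that rose was 5 to 10 with each array left out. DMSO replicate 1 was the lowest of the 6 arrays for 9 of the 21 targets, and SB202190 replicate 3 the highest for 9. The transcript of Nrf2 itself was 839, 855 and 898 in DMSO and 734, 807 and 921 in SB202190, with overlapping groups (-0.08, adjusted p = 0.783). Nqo1, a quinone reductase often read as an Nrf2 target, was 583, 454 and 311 against 548, 581 and 464 and did not pass (adjusted p = 0.434).

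Nrf2 binds the antioxidant response element, whose core is TGACNNNGC. RefSeq promoters (GRCm38.p6) were searched for it on both strands, the reverse strand reading GCNNNGTCA, over the 250 bases before each start. Of 16 measured targets with an entry, 3 held a match, as did 11.5% of 27025 genes with entries. Of the 11 that rose, 8 had an entry and 2 held a match, Gclm (chr3:122245307-122245556, plus strand) and Txnrd1 (chr10:82858956-82859205, plus strand, 1 of its 3 listed starts). These windows are printed 5′ to 3′, with the match in capitals, to show the letters behind the best known cis element of the list. They were chosen after the values were known. In both the match is on the reverse strand, 125 bases before the start in Gclm and 83 in Txnrd1.
Gclm: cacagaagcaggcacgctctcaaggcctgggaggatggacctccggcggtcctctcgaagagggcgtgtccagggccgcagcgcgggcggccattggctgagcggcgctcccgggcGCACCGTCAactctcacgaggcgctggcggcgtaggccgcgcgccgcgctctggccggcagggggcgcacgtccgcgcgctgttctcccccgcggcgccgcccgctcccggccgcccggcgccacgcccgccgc
Txnrd1: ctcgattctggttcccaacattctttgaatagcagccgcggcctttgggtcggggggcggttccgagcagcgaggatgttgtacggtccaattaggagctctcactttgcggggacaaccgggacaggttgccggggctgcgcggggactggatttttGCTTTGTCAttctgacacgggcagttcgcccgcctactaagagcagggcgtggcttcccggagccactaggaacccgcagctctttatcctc
A match is a description of these letters and not a site shown to be bound. Many known elements lie farther from the start, and the absence of a match says nothing about the factor.

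Genes of the lysosome formed another group with differences in one direction. Of 34 measured lysosomal hydrolases and membrane proteins, 33 had higher means in SB202190. Of the 34, 8 rose and 1 fell, beside 2.01% and 1.51% of all genes. The median difference was 0.25 against 0.025 for all genes. Beside Gpnmb, beta-galactosidase (Glb1), which removes galactose from gangliosides and keratan sulfate, rose from 232, 217 and 212 to 343, 317 and 359 (0.62, adjusted p = 0.000869). Neuraminidase 1 (Neu1), which removes sialic acid, rose from 77.7, 69.1 and 92.8 to 120.5, 132 and 146 (0.74, adjusted p = 0.0077). Cathepsin A (Ctsa), the protective protein that forms a complex with both, rose from 675, 770.4 and 782 to 899, 1039 and 1036 (0.42, adjusted p = 0.0171). The groups were apart for each of these 3 enzymes. Also past the threshold were alpha-mannosidase Man2b1 (0.59, adjusted p = 0.00445), cathepsin B (Ctsb, 0.36, adjusted p = 0.0256), palmitoyl-protein thioesterase Ppt1 (0.42, adjusted p = 0.0291) and Naglu, an enzyme of heparan sulfate breakdown (0.48, adjusted p = 0.0442). Cathepsin H (Ctsh) fell (-0.53, adjusted p = 0.0371). Of the genes that rose, Glb1, Man2b1 and Ctsa also rose with LY294002 against DMSO (0.62, 0.46 and 0.33, adjusted p = 0.000673, 0.0102 and 0.0272). Gpnmb fell with LY294002 (-1.57, adjusted p = 4.5e-05), and Ctsb did not pass (0.13, adjusted p = 0.352). Of the 34 genes, 5 were higher and 1 lower with SB202190 than with LY294002, and 11 were higher and 1 lower than with UO126.

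Within the lysosomal list, DMSO replicate 1 had the lowest of the 6 signals for 16 of 34 genes and SB202190 replicate 3 the highest for 14. The calls of Gpnmb, Glb1, Neu1 and Man2b1 held with each array left out, but Neu1 missed the threshold when only the 2 groups were fitted (adjusted p = 0.0801) and Man2b1 when arrays were centred on their medians (0.0576). Ctsa missed the threshold without DMSO replicate 1 or SB202190 replicate 2 or 3 (adjusted p 0.0507 to 0.0839). Ctsb passed without DMSO replicate 3, Naglu without DMSO replicate 2, and Ppt1 and Ctsh without DMSO replicate 1, but none of the 4 did so without any other array (adjusted p 0.0522 to 0.166). Of 16 subunits of the V-ATPase, the pump that acidifies lysosomes, 15 had positive differences (median 0.20), DMSO replicate 1 was the lowest array for 9 and SB202190 replicate 3 the highest for 9, and 1 passed, Atp6v1b2 (0.44 ± 0.11, adjusted p = 0.0418), a call lost without any 1 of the 6 arrays (adjusted p 0.0522 to 0.145). Of 34 autophagy genes and MiT/TFE factors, 1 rose, the mitophagy receptor Bnip3 (0.57 ± 0.13, adjusted p = 0.026), which passed without SB202190 replicate 3 but not without any other array (0.0556 to 0.118). The transcripts of Mitf, Tfeb and Tfe3, the factors that turn on lysosomal genes, did not pass (adjusted p = 0.579, 0.72 and 0.873).

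**Figure D2:**
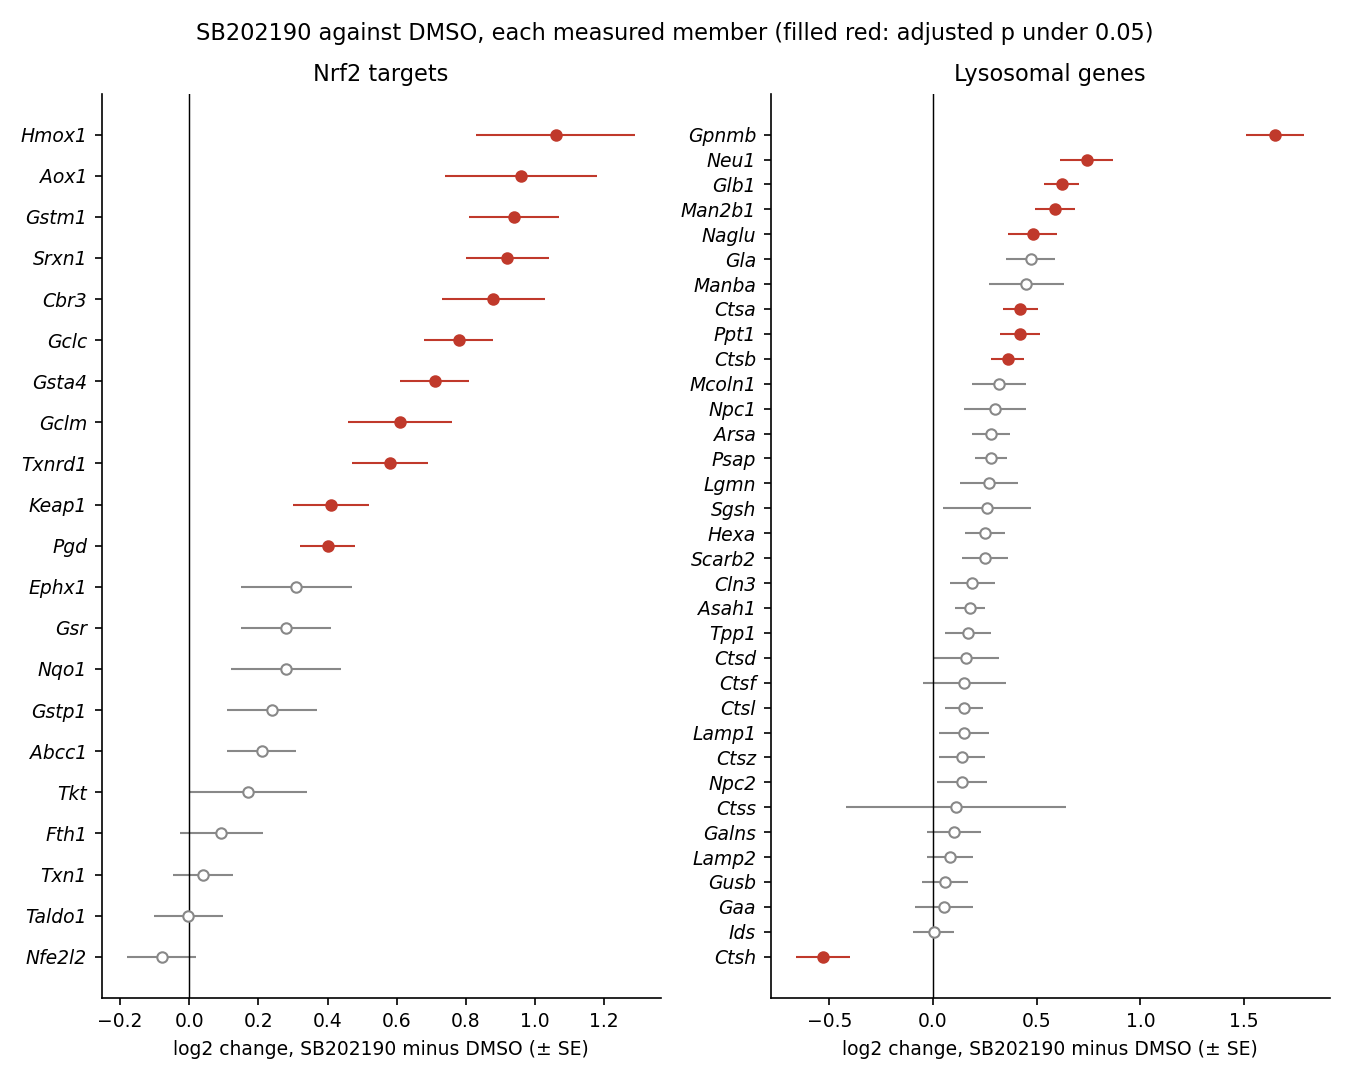
Log2 difference of SB202190 minus DMSO (horizontal axis, with the SE of the fit as bars) for each of the 21 measured Nrf2 targets and the 34 measured lysosomal genes, with members past the threshold filled in red. All but 2 Nrf2 targets and all but 1 lysosomal gene lie above 0, and 11 and 8 of them are past the threshold upward.

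The MiT/TFE factors bind the CLEAR element, whose core TCACGTG (reverse strand CACGTGA) holds the E-box CACGTG that many other factors read. Of 29 measured lysosomal genes with a RefSeq promoter entry, 12 held a match in the 250 bases before a start, against 3.58% of 27025 genes. The list was drawn from known lysosomal genes, for which this element was first described, so its frequency here is a property of the list and not of the response. Of the 8 that rose, 7 had an entry and 3 held a match: Ctsa (chr2:164833523-164833772, plus strand, 1 of its 2 listed starts), Glb1 (chr9:114400828-114401077, plus strand) and Naglu (chr11:101069844-101070093, plus strand). They are printed as above, to show that the matches lie within 67 bases of the start in all 3.
Ctsa: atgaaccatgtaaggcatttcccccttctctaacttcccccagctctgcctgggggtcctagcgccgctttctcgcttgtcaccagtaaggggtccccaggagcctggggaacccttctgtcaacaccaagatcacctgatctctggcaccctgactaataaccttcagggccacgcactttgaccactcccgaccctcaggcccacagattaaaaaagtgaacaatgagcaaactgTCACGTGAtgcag
Glb1: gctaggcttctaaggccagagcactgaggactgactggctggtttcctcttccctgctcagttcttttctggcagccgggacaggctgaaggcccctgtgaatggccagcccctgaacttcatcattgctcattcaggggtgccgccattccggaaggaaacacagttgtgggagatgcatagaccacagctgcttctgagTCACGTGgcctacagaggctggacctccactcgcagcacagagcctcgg
Naglu: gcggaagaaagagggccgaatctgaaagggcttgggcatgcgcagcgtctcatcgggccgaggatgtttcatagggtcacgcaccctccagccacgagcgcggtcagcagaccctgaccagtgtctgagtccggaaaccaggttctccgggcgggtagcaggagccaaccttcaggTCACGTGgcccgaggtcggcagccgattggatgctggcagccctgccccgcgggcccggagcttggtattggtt

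Genes of the cartilage matrix and the Sox factors that drive it were lower in SB202190 in most cases, with few past the threshold. Of 30 measured, 27 had negative differences, 5 fell and none rose, beside 1.51% and 2.01% of all genes, and the median was -0.29. Ucma and Prg4 fell as given above. The neuronal and cartilage peptide Scrg1 fell from 1032, 1327 and 1296 to 620.0, 773 and 829.5 (-0.72 ± 0.17, adjusted p = 0.0321), and the leucine-rich repeat proteins chondroadherin (Chad) and fibromodulin (Fmod) fell by 0.67 and 0.63 on the log2 scale (adjusted p = 0.0397 and 0.0439). The groups did not overlap for the 3 genes, but the calls were weak. Scrg1 lost its call without DMSO replicate 2 or 3 or SB202190 replicate 1 or 2 (adjusted p 0.0874 to 0.15). Chad passed without SB202190 replicate 3 and Fmod without DMSO replicate 1, and without any other array their adjusted p-values were 0.0593 to 0.197. Aggrecan (Acan), the main proteoglycan, was 1938, 2305 and 3301 in DMSO and 1614, 1852 and 2020.1 in SB202190 (adjusted p = 0.32), and Sox9, the factor that specifies chondrocytes, was 826, 667 and 1007 against 581, 528 and 855 (adjusted p = 0.485). DMSO replicate 3 had the highest of the 6 signals for 21 of the 30 genes, and SB202190 replicate 1 the lowest for 17.

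Genes of hypertrophy and mineralization had the lowest median of the lists with over 20 measured members, -0.56 over 21 genes, of which 18 were lower in SB202190. 4 fell and none rose, beside 1.51% and 2.01% of all genes. Bone sialoprotein (Ibsp), which nucleates mineral, fell from 1855, 1928 and 1574 to 571, 675 and 904 (-1.34 ± 0.33, adjusted p = 0.0422), and neutral sphingomyelinase 2 (Smpd3), which mineralization of cartilage and bone requires, fell from 357, 409.6 and 672 to 134, 151 and 283 (-1.37 ± 0.35, adjusted p = 0.0465). The phosphate transporter Slc20a1 fell from 763, 785 and 781 to 554, 509 and 540.3 (-0.54 ± 0.12, adjusted p = 0.0301), and the forkhead factor Foxa3 from 147, 144 and 129.7 to 90.1, 96.3 and 77 (-0.68 ± 0.14, adjusted p = 0.0168). The SB202190 arrays were below all DMSO arrays for all 4. DMSO replicate 3 had the highest of the 6 signals for 11 of the 21 genes, and SB202190 replicate 1 the lowest for 11. Ibsp and Slc20a1 lost their calls without any 1 of the 6 arrays (adjusted p 0.0532 to 0.168). Smpd3 did so without DMSO replicate 2 or 3 or SB202190 replicate 1 or 2 (0.0931 to 0.189), and Foxa3 without DMSO replicate 2 or SB202190 replicate 1 or 3 (0.0522 to 0.0627). Between 0 and 2 of the 21 genes fell with an array left out.

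**Figure D3:**
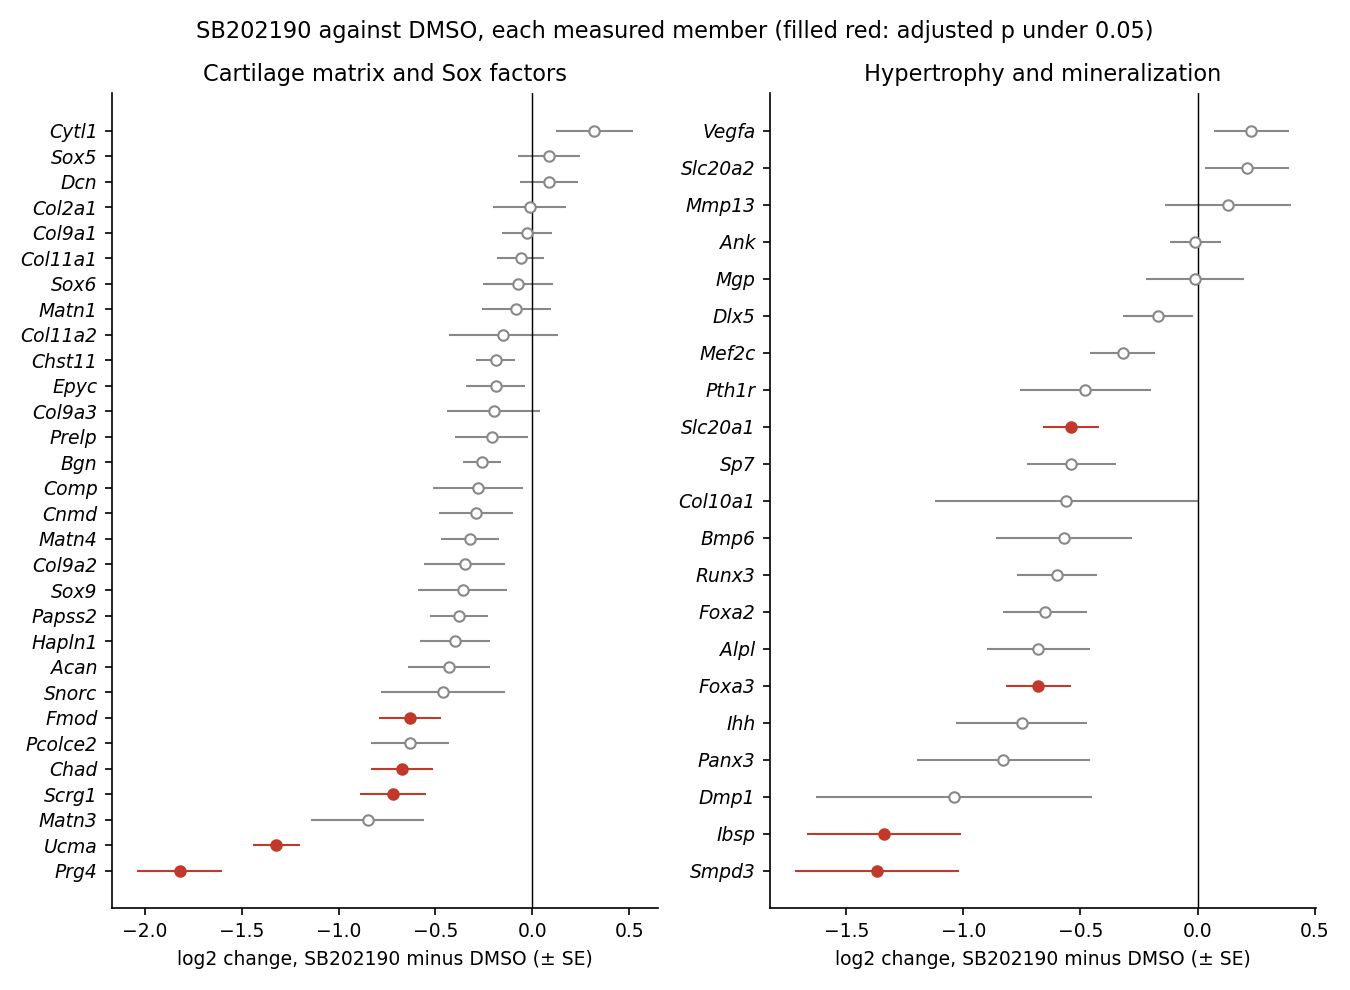
Log2 difference of SB202190 minus DMSO (horizontal axis, with the SE of the fit as bars) for each of the 30 measured genes of cartilage matrix and Sox factors and the 21 measured genes of hypertrophy and mineralization, with members past the threshold filled in red. 27 and 18 of them lie below 0, and 5 and 4 are past the threshold, all downward.

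The classical markers of hypertrophy did not pass the test, which took no account of replicate numbers. Type X collagen (Col10a1) was 219.8, 374 and 1049 in DMSO and 196, 289.9 and 476 in SB202190 (adjusted p = 0.697). Indian hedgehog (Ihh), the signal made by prehypertrophic cells, was 69.2, 88.9 and 146 against 53, 56.5 and 62.9 (-0.75 ± 0.28, adjusted p = 0.194). Within each group replicate 3 was the highest array for both genes, and the groups overlapped for Col10a1 but not for Ihh. Mmp13, the collagenase of late hypertrophic cartilage, had means of 3090.2 and 3357 (adjusted p = 0.886). Alkaline phosphatase (Alpl) was 226, 322 and 376 against 147, 201 and 226 (-0.68 ± 0.22, adjusted p = 0.13). In an alternative limma fit with the replicate number as a block, Col10a1, Ihh and Alpl passed, each lower with SB202190 (adjusted p = 0.0465, 0.04 and 0.00918). The osteoblast marker list, which shares Ibsp, had 9 measured genes, 8 of them lower in SB202190 (median -0.54), with Ibsp the 1 that fell. The summed signal of the list's 10 genes annotated on the array was 6564 to 8858 in DMSO and 5613 to 6119 in SB202190. The part of osteoblast-lineage cells in the falls was not tested.

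Readouts of the hedgehog pathway were lower. Ptch1, the receptor and direct target of hedgehog signaling, fell from 1283, 1208 and 1369.9 to 644, 733 and 727 (1.84-fold lower, -0.88 ± 0.12, adjusted p = 0.000885), and the target transcription factor Gli1 fell from 90.9, 126 and 116 to 45.6, 56.8 and 56.1 (-1.06, adjusted p = 0.0103). All SB202190 arrays lay below all DMSO arrays for both. Gli1 was just outside the threshold without DMSO replicate 2 or SB202190 replicate 1 (adjusted p = 0.0506 and 0.0561). The decoy receptor Hhip, another direct target, was 56.1, 54.9 and 57.5 in DMSO and 24.4, 40.1 and 25.8 in SB202190 without passing (-0.94 ± 0.32, adjusted p = 0.138). These were 2 of 13 measured genes of the hedgehog and PTHrP pathway that fell, none rose, and the median of the list was 0.041.

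Of 22 Wnt targets and antagonists, 3 fell and none rose, beside 1.51% and 2.01% of all genes. The 3 calls held with each array left out. That of Apcdd1 was lost with arrays centred on their medians (adjusted p = 0.0744) and with only the 2 groups in the fit (0.0715). The secreted Wnt antagonist Wif1 fell from 264, 262 and 228 to 78.5, 91.7 and 79.3 (3.02-fold lower, -1.60 ± 0.16, adjusted p = 4.77e-05). The secreted Wnt target Ccn4, formerly Wisp1, fell from 629.7, 466 and 521 to 296, 232 and 302 (-0.96 ± 0.14, adjusted p = 0.00223), and the membrane antagonist Apcdd1, itself a Wnt target, fell from 295, 264 and 308 to 177, 199.8 and 213 (-0.56 ± 0.097, adjusted p = 0.00631). For all 3 the arrays of the groups were apart. The 3 thus include inhibitors as well as targets of the pathway.

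Genes of the TGF-beta and BMP pathways moved both ways: 2 of 32 rose and 4 fell, beside 2.01% and 1.51% of all genes. Id3, a BMP target that inhibits helix-loop-helix factors, rose from 1197, 1190.4 and 1420.2 to 1847, 1930.0 and 1951 (0.59, adjusted p = 0.00402), and the ligand Bmp2 rose by 0.74 (adjusted p = 0.0239). Pmepa1, a TGF-beta target that restrains Smad signaling, fell from 326, 263 and 312 to 155, 154 and 155 (-0.95, adjusted p = 0.00114). Follistatin (Fst), which binds activins, fell from 883, 902 and 947 to 495, 398 and 441 (-1.04 ± 0.10, adjusted p = 4.44e-05). The SB202190 arrays were nearly equal for Pmepa1, and the groups were apart for Id3, Pmepa1 and Fst, whose calls held with each array left out. The co-repressor Skil and the activin subunit Inhba fell by 0.49 and 0.68 on the log2 scale (adjusted p = 0.0373 and 0.0497). Skil passed without SB202190 replicate 1 and Inhba without DMSO replicate 2, with adjusted p-values of 0.0758 to 0.183 without any other array, and Bmp2 missed the threshold without DMSO replicate 2 or 3 or SB202190 replicate 1 or 2 (0.0897 to 0.109).

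Of 18 growth factor ligands and binding proteins, 3 fell and none rose, beside 1.51% and 2.01% of all genes. The insulin-like growth factor binding proteins Igfbp2 and Igfbp5 went from 203, 258 and 263 to 119, 129.7 and 143 and from 1890.1, 2301 and 2605 to 1488, 1603 and 1474 (adjusted p = 0.0373 and 0.0241), and the secreted protein Angptl7 from 496, 462 and 702 to 298, 328 and 369 (adjusted p = 0.026). Each of these falls was of nonoverlapping groups. Igfbp2 and Igfbp5 passed without DMSO replicate 1 but not without any other array (adjusted p 0.0647 to 0.142), and Angptl7 missed the threshold without DMSO replicate 3 or SB202190 replicate 1 or 2 (0.0904 to 0.119).

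Both members of the pair that sets osteoclast formation were lower. Rank ligand (Tnfsf11), which chondrocytes and osteoblasts use to induce osteoclasts, went from 104, 71.9 and 115 to 60.3, 34.7 and 35 (-1.18, adjusted p = 0.0134), and its decoy receptor osteoprotegerin (Tnfrsf11b) from 846, 709 and 924 to 433, 429 and 581 (-0.79, adjusted p = 0.0322). The groups were apart for both genes, and the SB202190 mean of Tnfsf11 was under 50. They were the 2 of 9 osteoclast coupling factors that fell. Tnfsf11 missed the threshold without DMSO replicate 3 or SB202190 replicate 2 or 3 (adjusted p 0.0522 to 0.0715), and Tnfrsf11b without DMSO replicate 1 or 3 or SB202190 replicate 1 or 2 (0.0723 to 0.132). Of 6 measured osteoclast markers none passed with limma, and 1 was higher at an unadjusted p under 0.05.

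Among inflammatory mediators, which p38 is known to induce, few passed the test, and the SB202190 arrays lay far apart for some. Of 23 measured cytokines, chemokines and their brakes, 1 rose and 2 fell, and 7 did not overlap between the groups, beside 23.1% of all genes. Cxcl12, the chemokine that holds stem cells in their niche, rose from 659, 608 and 554 to 1003, 1021 and 989.9 (0.73, adjusted p = 0.000135), Cxcl14, a chemokine of epithelia and mesenchyme, fell from 467, 424 and 391 to 221, 224 and 191 (-1.01, adjusted p = 0.000317), and the interleukin 1 receptor antagonist Il1rn fell by 0.55 on the log2 scale (adjusted p = 0.0439). For the 2 chemokines the groups were well apart and the calls held with each array left out, while Il1rn lost its call without any 1 of the 6 (adjusted p 0.066 to 0.169). Within the list, SB202190 replicate 1 had the highest signal of the 6 arrays for 9 genes, and SB202190 replicate 3 the lowest for 15. Examples chosen after their values were seen are Cxcl1, with 531, 611 and 513 in DMSO and 1547, 486 and 213 in SB202190, and Ccl2, with 243, 231 and 203 against 591, 126 and 82.9. In both, SB202190 replicate 1 lay above and replicate 3 below every DMSO array.

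Immediate early genes, which serum, growth factors and handling switch on within minutes, showed the same arrays at the ends. Of 29, none rose and the small GTPase Gem fell, to a mean under 50 (-0.97 ± 0.20, adjusted p = 0.0205, and 0.07 to 0.0955 without DMSO replicate 3 or SB202190 replicate 2 or 3). SB202190 replicate 3 was the lowest of the 6 arrays for 15 of the 29 and the highest for none, while SB202190 replicate 1 was the highest for 12. Fos, also chosen after its values were seen, was 490, 608 and 383 in DMSO and 1099.6, 1427 and 336 in SB202190. Nr4a1, a nuclear receptor of this class that the study had selected, was 145, 191 and 178 against 322, 358 and 81 (adjusted p = 0.874). Neither gene gives a direction, since SB202190 replicates 1 and 2 were above all DMSO arrays and replicate 3 below them. A low replicate 3 was not limited to SB202190. For Fos it was the lowest array in DMSO too, with UO126 (604, 635 and 161), LY294002 (2154, 2262 and 327) and TSA (2175, 3033 and 795).

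Of 10 measured genes for prostaglandin enzymes and receptors, 1 fell. Hpgd, which inactivates prostaglandins, fell from 304, 264 and 236 to 127, 161 and 168 (-0.82 ± 0.14, adjusted p = 0.00504), below every DMSO array. Cyclooxygenase 2 (Ptgs2), a gene long tied to p38, was 415, 308 and 398 in DMSO and 313, 269 and 119 in SB202190, with overlapping groups (-0.78 ± 0.49, adjusted p = 0.477). Of 19 interferon-stimulated genes none passed with limma, and 3 were higher and none lower at an unadjusted p under 0.05.

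Of 29 matrix proteases and inhibitors, 2 rose. Adamts9, a metalloprotease that cleaves aggrecan and versican, went from 217, 345 and 216 to 448, 552 and 445 (0.92 ± 0.16, adjusted p = 0.00613, and 0.0648 with only the 2 groups in the fit), and Reck, a membrane inhibitor of such proteases, from 824, 863 and 724 to 1043, 1119.7 and 1118 (0.45 ± 0.084, adjusted p = 0.0105, but 0.0524 without SB202190 replicate 2, 0.0572 with arrays centred and 0.0724 with only the 2 groups in the fit). The groups did not overlap for either gene. The inhibitor Timp3 was 1847, 2513 and 2941 in DMSO and 1464, 1513 and 1798 in SB202190 and lay just outside the threshold (-0.59 ± 0.15, adjusted p = 0.0507). Without DMSO replicate 1 it passed (adjusted p = 0.0086). Adamts5, the aggrecanase the study had selected, was 501, 440.1 and 422 in DMSO and 566, 524 and 482 in SB202190, and did not pass (adjusted p = 0.388).

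Metabolic and stress lists had few calls. Dhcr7, the last enzyme of cholesterol synthesis, rose from 387, 342 and 289.8 to 532, 533 and 542 (0.67 ± 0.10, adjusted p = 0.00242) as the 1 of 22 sterol genes that did. Lpin1, a phosphatidate phosphatase, rose as 1 of 18 genes of fatty acid synthesis (0.59 ± 0.15, adjusted p = 0.0432, and 0.0766 to 0.185 without any 1 of the 6 arrays). Of 28 glycolysis and hypoxia genes 1 rose, Bnip3. The fallers were Ahr, the receptor of dioxin (1 of 8 genes of its pathway, -0.68 ± 0.15, adjusted p = 0.0214, and 0.0533 to 0.092 without DMSO replicate 2 or any of the SB202190 arrays), Serp1, a stabilizer of membrane proteins (1 of 22 endoplasmic reticulum genes, -0.40 ± 0.064, adjusted p = 0.0038, but 0.169 with arrays centred and 0.0667 with only the 2 groups in the fit), and Ddit4, an inhibitor of mTORC1 (1 of 26 genes of the Atf4 amino acid response, -0.99 ± 0.19, adjusted p = 0.0131, and 0.0676 and 0.0686 without SB202190 replicates 1 and 2).

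Genes of proliferation were not called. None of 34 genes of S phase, 34 of G2 and mitosis, 12 D cyclins and inhibitors of cyclin-dependent kinases, 20 p53 targets and 17 heat shock proteins passed with limma. At an unadjusted p under 0.05 there were none among the S phase and mitotic genes, 1 lower among the cyclins and inhibitors, 3 higher and 3 lower among the p53 targets and 2 lower among the heat shock proteins. The medians for S phase and mitosis were 0.047 and 0.020, beside 0.025 for all genes.

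Few markers of other cells in such a culture passed the test, while the medians of some of these lists were far from 0. Of 24 fibroblast and perichondrium genes, 1 rose, the transcription factor Twist2 (0.64 ± 0.16, adjusted p = 0.04), a call lost without any 1 of the 6 arrays (adjusted p 0.0702 to 0.12). The 5 adipocyte genes all had positive differences (median 0.47), and 4 did not overlap between the groups, beside 23.1% of all genes. Of them, lipoprotein lipase (Lpl), which releases fatty acids from triglycerides, rose from 515, 577 and 521 to 821, 941 and 885 (0.71 ± 0.15, adjusted p = 0.021). It passed without DMSO replicate 2 and had adjusted p-values of 0.0522 to 0.0903 without any other array. Of 29 smooth muscle and actin genes, calponin 1 (Cnn1), with 45.3, 59.7 and 90.1 against 9.09, 5.61 and 32.7, and the myosin light chain Myl9, with 964, 1161 and 1096 against 737, 851 and 849, fell (adjusted p = 0.0099 and 0.0232). The SB202190 signals of Cnn1 are under 50, where fold changes are uncertain, and its call was lost without SB202190 replicate 1 (adjusted p = 0.0521). Myl9 lost its call without DMSO replicate 2 or 3 or SB202190 replicate 1 or 2 (0.0559 to 0.12). The 22 skeletal muscle genes had a median of 0.32, with 14 positive differences and none that rose. Caveolin 3 (Cav3) fell, to a mean under 50 with SB202190 (-1.42 ± 0.28, adjusted p = 0.0148, and 0.0506 to 0.0743 without DMSO replicate 2 or SB202190 replicate 1 or 2). None of 4 measured endothelial genes passed with limma, and 1 was higher at an unadjusted p under 0.05.

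**Figure D4:**
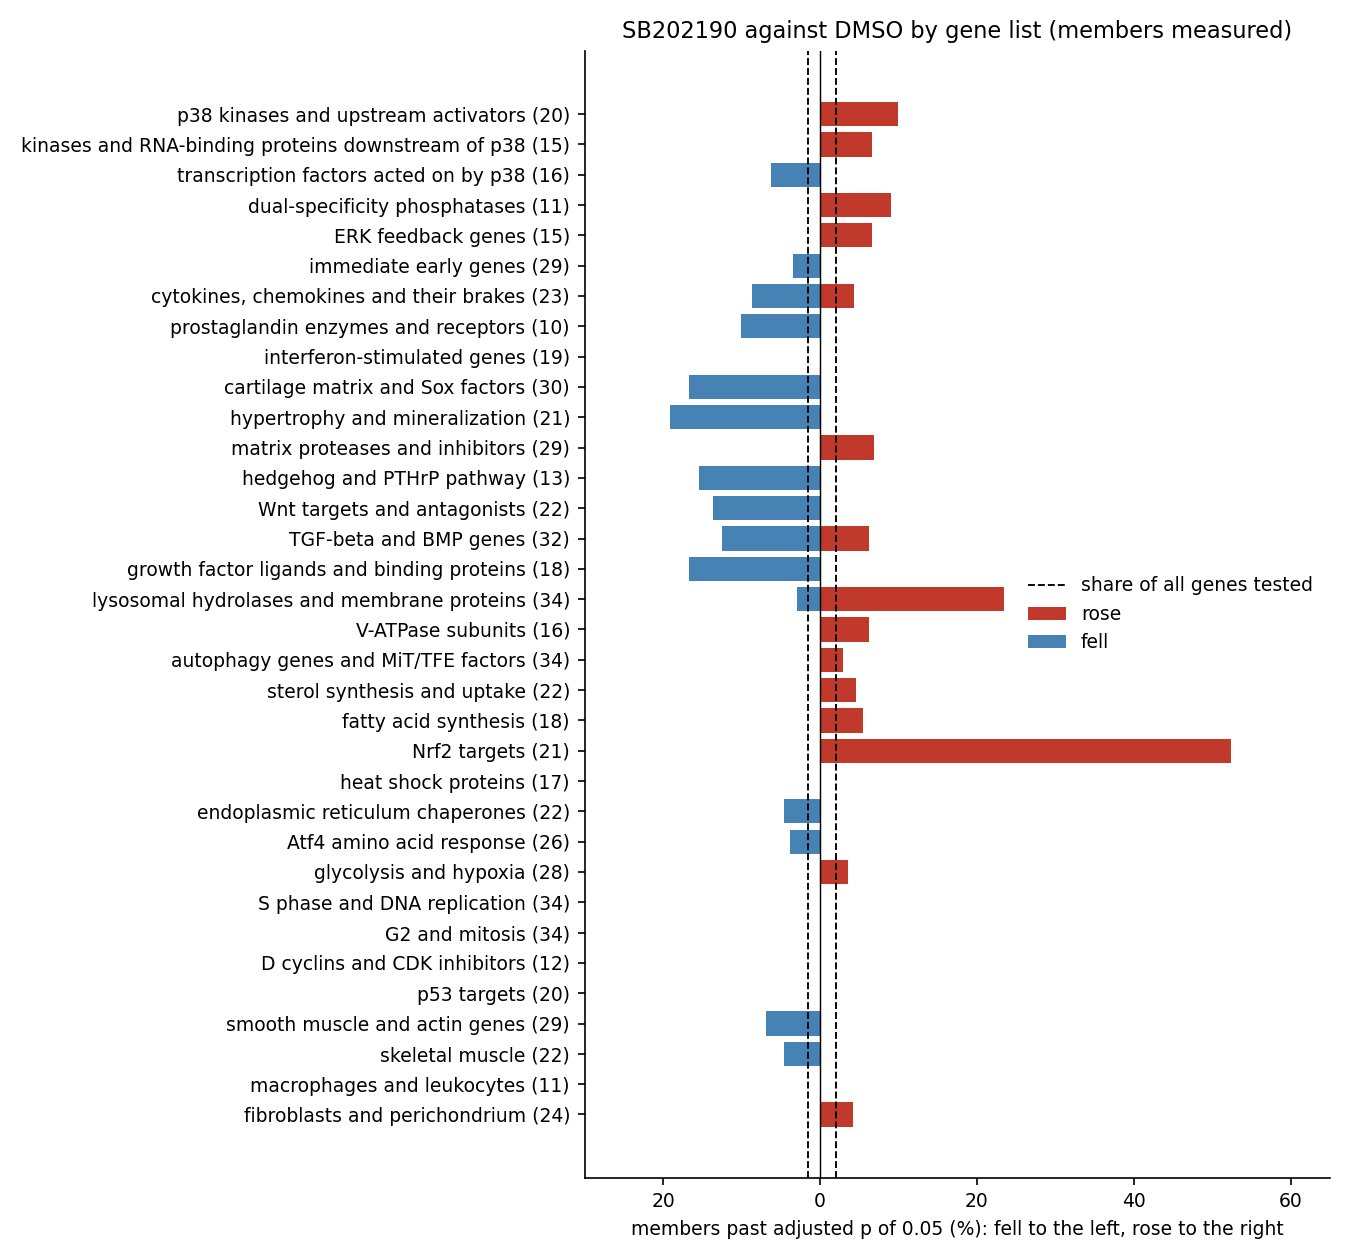
Percent of the measured members of each gene list (number measured in parentheses) that were past the threshold, with members that fell drawn to the left of 0 and members that rose to the right, for lists of 10 or more measured members. The dashed lines mark the shares of all genes tested (1.51% fell, 2.01% rose); the longest bar is that of the Nrf2 targets, 11 of 21, and the longest to the left is that of hypertrophy and mineralization, 4 of 21.

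Across all genes, 2719 of 11751 (23.1%) had 3 SB202190 arrays on 1 side of the 3 DMSO arrays. Against that background, 12 of 21 Nrf2 targets, 18 of 34 lysosomal genes and 12 of 21 genes of hypertrophy and mineralization did not overlap. The same was true of 14 of 32 TGF-beta and BMP genes and 13 of 29 matrix proteases and inhibitors. For autophagy genes and MiT/TFE factors the count was 15 of 34, and for V-ATPase subunits 8 of 16. The cartilage list, with 9 of 30, was nearer the share of all genes. For the mitotic genes the count was 0 of 34 and for the S phase genes 2 of 34.

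The 3 kinase inhibitors were given at the same dose and time, and SB202190 was set against UO126 and LY294002 directly. SB202190 was higher than UO126 for 562 genes (4.78%) and lower for 586 (4.99%), or 888 and 894 probe sets. Without SB202190 replicate 1, SB202190 replicate 2 or UO126 replicate 3, the 1782 probe sets became 1032, 1155 and 1079. Gpnmb had the largest difference upward, with a mean of 531 ± 33.5 in SB202190 and 99.4 in UO126 (2.42 ± 0.14, adjusted p = 9.52e-08), and against DMSO it was lower with UO126 (-0.77, adjusted p = 0.00664). Mt1 (2136 against 468, log2 difference 2.22 ± 0.17, adjusted p = 1.77e-06) and Sned1 (1.99 ± 0.19, adjusted p = 1.31e-05) likewise were higher than DMSO with SB202190 and lower than it with UO126. Klk10, a serine protease, was 853, 547 and 945 with SB202190, 762, 574 and 970.3 in DMSO and had a mean of 237 with UO126 (1.71, adjusted p = 0.000202). The SB202190 and DMSO arrays overlapped for it. Clip4, a microtubule-associated protein, and the adhesion molecule Nrcam were higher than in UO126 by 1.60 and 1.57 (adjusted p = 1.94e-06 and 7.05e-06).

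Several genes that fell with SB202190 were higher with UO126 than in DMSO. Against DMSO, UO126 gave 1.11 ± 0.13 for C1qtnf3, 0.82 ± 0.098 for Penk, 1.38 ± 0.35 for Smpd3 and 1.47 ± 0.21 for Igfbp2 (adjusted p = 0.000232, 0.000216, 0.0459 and 0.00117). C1qtnf3 had means of 347 with SB202190, 984 in DMSO and 2145 with UO126 (SB202190 minus UO126 -2.62 ± 0.13, adjusted p = 2.66e-08). Penk had means of 648, 1515 and 2687 in the same order (-2.04 ± 0.098, adjusted p = 2.66e-08). Smpd3 (-2.75 ± 0.35, adjusted p = 0.000142) and Igfbp2, with 131 ± 12.1 against 690.3 (-2.35, adjusted p = 6.87e-06), had the same order of means. The other genes with the largest falls against UO126 were Megf6, a secreted protein with EGF-like repeats (-1.93, adjusted p = 1.18e-05), and Fam89a (-1.92, adjusted p = 8.23e-05). Of 30 cartilage genes 18 were lower and 1 higher than with UO126, and of 21 genes of hypertrophy and mineralization 13 were lower and 1 higher. Ihh, for example, had a mean of 57.5 ± 5.01 with SB202190 and 209 with UO126 (-1.79, adjusted p = 0.000968), and Fmod 574 ± 97.3 and 2018 (-1.82, adjusted p = 4.93e-06). Ptch1 was lower with SB202190 than with UO126 (-1.17, adjusted p = 1.59e-05) and LY294002 (-0.82, adjusted p = 0.000845). Of 15 ERK feedback genes, 8 were higher than with UO126 and none lower. Among them was Dusp6, the phosphatase of ERK (582 ± 147 against 231, log2 difference 1.31, adjusted p = 0.00271). The DMSO mean of Dusp6 was 470.4. Against DMSO, Dusp6 did not pass with SB202190 (0.28, adjusted p = 0.636) and fell with UO126 (-1.03, adjusted p = 0.0311).

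**Figure D5:**
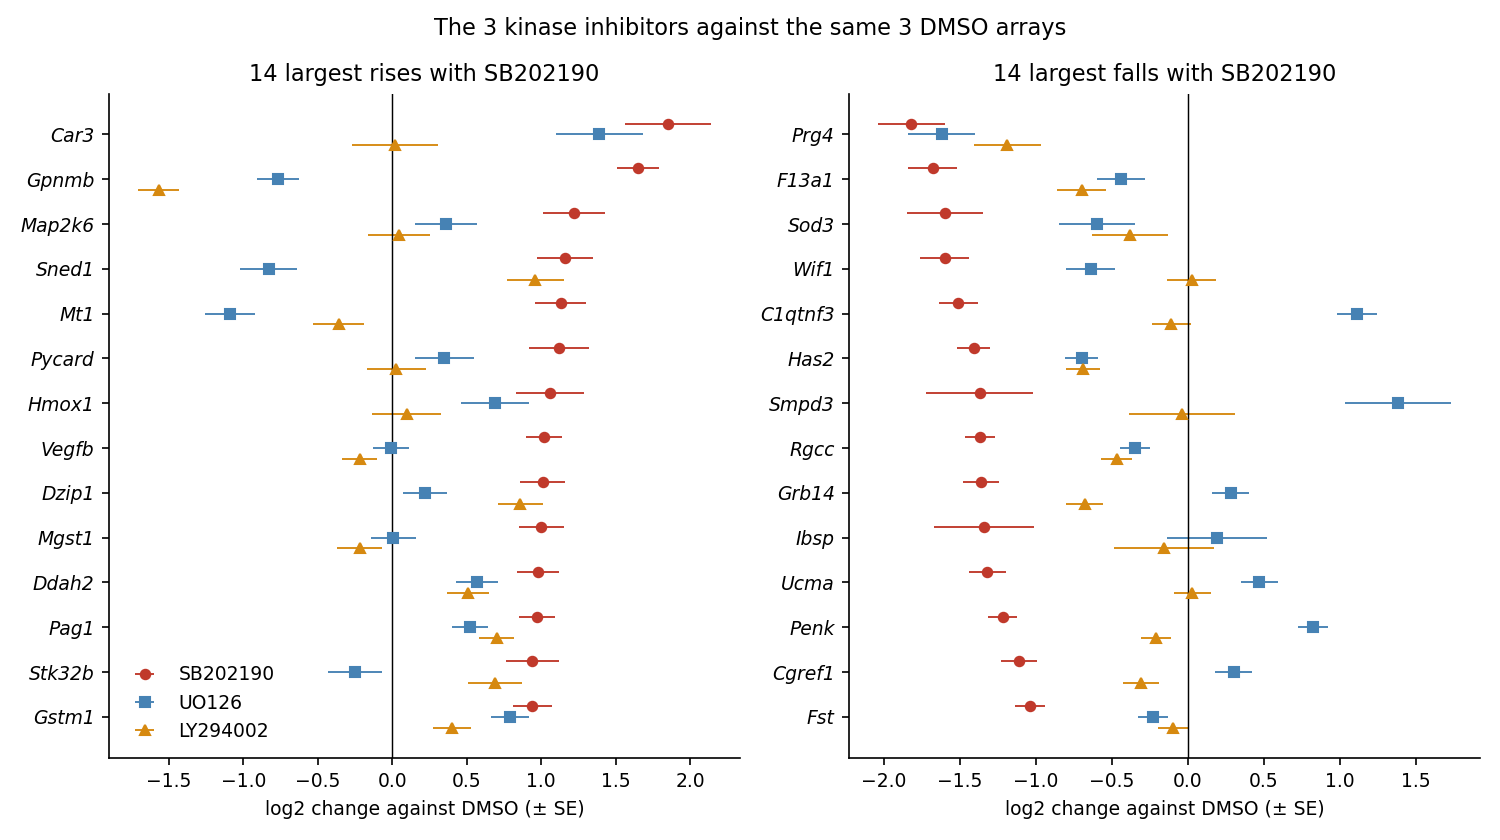
Log2 difference from DMSO (horizontal axis in log2 units, with the SE of the fit as bars) for SB202190, UO126 and LY294002, each against the same 3 DMSO arrays, for the 14 largest rises and 14 largest falls of SB202190. C1qtnf3, Penk and Smpd3 lie below 0 for SB202190 and above 0 for UO126, Gpnmb lies above 0 for SB202190 and below 0 for the other inhibitors, and Prg4 and Has2 lie below 0 for all 3; because the DMSO arrays are shared, the 3 values of a gene are not independent.

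SB202190 was higher than LY294002 for 443 genes (3.77%) and lower for 424 (3.61%), or 657 and 669 probe sets, of which 49.5% were higher. With each array centred on its median, 217 were higher and 499 lower, or 30.3% higher. With an array left out the count of 1326 became 873, 811 and 802 without LY294002 replicates 1, 2 and 3, and 716, 795 and 858 without SB202190 replicates 1, 2 and 3. Gpnmb was again first, at 531 ± 33.5 against 57.4 (3.21 ± 0.14, adjusted p = 7.38e-09), and Car3 followed (1.84 ± 0.29, adjusted p = 0.00173). Krt18, a keratin, had means of 201 with SB202190, 246 in DMSO and 65.6 with LY294002 (SB202190 minus LY294002 1.62, adjusted p = 3.94e-06). Gsta4 (1.61, adjusted p = 3.79e-07), Mt1 (1.49, adjusted p = 0.000179) and the fast muscle light chain Myl1 (1.43, adjusted p = 0.0339) completed the 6 largest. Of 21 Nrf2 targets, 11 were higher and none lower than with LY294002, while against UO126 4 were higher and none lower. The genes farthest below LY294002 were Angptl7, with 332 ± 35.7 against 1379.5 (-2.06, adjusted p = 4.72e-06), the glycogen-targeting subunit Ppp1r3c (-1.68, adjusted p = 0.001), Wif1 (-1.62 ± 0.16, adjusted p = 3.66e-05), Cxcl14 (-1.57, adjusted p = 4.31e-06), the collagen Col8a2 (-1.44, adjusted p = 0.000229) and C1qtnf3 (-1.40 ± 0.13, adjusted p = 3.42e-05). For Angptl7 the LY294002 mean was above and the SB202190 mean below the DMSO mean of 553.

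Other genes had lower means than DMSO with each of the 3 inhibitors. Prg4 had means of 359 ± 24.8 in DMSO, 103 ± 22.4 with SB202190, 118 with UO126 and 157 with LY294002, and all 3 inhibitors passed against DMSO (adjusted p = 0.000317, 0.0006 and 0.00474). Neither the difference between SB202190 and UO126 (-0.21 ± 0.22, adjusted p = 0.674) nor that from LY294002 (-0.63 ± 0.22, adjusted p = 0.107) passed, which does not show that the agents acted alike. Has2 was 491 ± 60 in DMSO, 184 ± 4.1 with SB202190, 302 with UO126 and 304 with LY294002, and SB202190 was lower than UO126 and LY294002 (-0.72 ± 0.11 for each, adjusted p = 0.000539 and 0.000957). F13a1, a gene the study had selected from its LY294002 arrays, was 211 ± 19.3 in DMSO, 66 ± 4.86 with SB202190, 156 with UO126 and 130.3 with LY294002. SB202190 was lower than both (-1.24 ± 0.16, adjusted p = 0.000169, and -0.98 ± 0.16, adjusted p = 0.00189). Unlike these, Phlda2, another gene so selected, did not have a lower mean than DMSO with each inhibitor. It was 96.3, 84.5 and 105 in DMSO and 45.8, 56.5 and 93.6 with SB202190, with overlapping arrays (adjusted p = 0.203, and 0.0445 without SB202190 replicate 3). Its mean was 99.8 with UO126 and 33.7 with LY294002. Some of the 14 largest rises also passed against DMSO with another inhibitor, while Gpnmb, Mt1 and Sned1 were lower with UO126, as given above. With UO126, Car3 rose by 1.39 and Gstm1 by 0.79 (adjusted p = 0.0174 and 0.00255). With LY294002, Dzip1 rose by 0.86 (adjusted p = 0.0036). Ddah2 rose with UO126 and LY294002 (0.57 and 0.51, adjusted p = 0.037 and 0.0336). Rises particular by test to SB202190 among the 3 inhibitors included Vegfb, which was 385 ± 14.3 with SB202190, 192 ± 26.8 in DMSO, 189 with UO126 and 164 with LY294002 (SB202190 minus UO126 1.03 ± 0.12, adjusted p = 6.48e-05; minus LY294002 1.24 ± 0.12, adjusted p = 3.37e-05), and Mgst1, with 1116 ± 105, 564 ± 99.6, 566 and 483 in the same order (adjusted p = 0.000604 and 0.000236).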

How the data were processed

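The deposited values are microarray intensities, the MAS5 signals that the authors computed for each array of a mouse whole-genome Affymetrix design and scaled to a trimmed mean of 150. They are linear and were deposited without detection calls, so low signals carry no mark of absence. Settings of MAS5 are not given in the sources used here.

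Before taking log2, any signal below 1 was raised to 1. Of 45101 probe sets, 64 controls were left out, and 21765 with a mean of at least 50 in at least 1 of the 5 groups were tested, so a gene could pass through a group not compared. A model with 5 groups of 3 arrays was fitted to all 15 in limma 3.58.1 (R 4.3.3), with the prior variance following mean signal, and p-values were adjusted by Benjamini-Hochberg at 0.05. The code was tested on simulated data. Names came from the platform annotation: 19760 tested probe sets had 1 symbol, 537 several and 1468 none. Of 11751 genes, 5037 had several tested probe sets and were given by the one with the highest mean log2 signal. The number of arrays limits the precision.

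Genes were named by rule: the 14 largest rises and 14 largest falls among 289 genes past the threshold with nonoverlapping arrays and 200 or more as the mean of whichever group was higher, up to 6 called and 4 further members of each of 41 lists, all p38 kinases, the 6 largest differences from UO126 and LY294002 in each direction, and 4 genes of the study. The remaining called members of the Nrf2 and lysosomal lists and Acan, Sox9, Mmp13, Hhip, Timp3, Cxcl1 and Ccl2 fall outside this rule and were named after their values were seen. The comparison, lists and tests were chosen with earlier results of these data known. Alternatives changed normalization, filter, log scale, variance prior, arrays in the fit and a replicate block, and left out each array in turn.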

Additional observations from a re-analysis of the deposited data

How the results depend on the processing

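The count of 619 probe sets for SB202190 against DMSO was 210 (118 higher, 92 lower) with each array centred on its median, 410 without the filter on signal, and 181 (81 higher, 100 lower, or 44.8% higher against 54%) when only these 2 groups entered the fit, and it ranged from 213 to 541 with each array left out. Against UO126, 1782 became 1003 with centring, with a range of 1032 to 1534 as single arrays were left out. Against LY294002, 1326 became 716 (217 higher, 499 lower) with centring and ranged from 716 to 873. The 131 probe sets at least 2-fold apart became 2883 without the filter and 64 with a group mean of 100, and ranged from 156 to 208. The cause of these shifts was not tested. Centring moved the median of all genes by 0.039, 0.017 and -0.089 (log2) in the 3 comparisons. Against DMSO it turned the sign of 4 list medians that were near 0: kinases downstream of p38 (-0.03 to 0.01), transcription factors acted on by p38 (-0.00 to 0.03), matrix proteases (-0.04 to 0.00) and endoplasmic reticulum chaperones (-0.03 to 0.01). Against LY294002 it turned 6, among them p38 kinases (0.08 to -0.01), dual-specificity phosphatases (0.00 to -0.09) and ERK feedback genes (0.07 to -0.02), and against UO126 0, while quantile normalization turned 2 against UO126. No named gene changed direction where it passed the threshold in the main fit or in the alternative. Changes of sign in genes that passed in neither were not counted. Of 85 named genes past the threshold against DMSO, 44 kept the call with each array left out and 38 under every alternative run; centring removed 32 calls, the fit of 2 groups alone 33, no filter 21, and no variance trend 18. For the direct comparisons with UO126 and LY294002, single arrays were left out for the counts and not gene by gene. Low signals limit the called falls of Cav3, Cnn1, Gem and Tnfsf11 and the values of Mapk11, Mapk12 and Hhip, whose SB202190 means were under 50.

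Replicate numbers were not taken as pairs, because the labels do not tie them to a shared culture and arrays with the same number deviated together only weakly. The correlations of their deviations between SB202190 and DMSO were 0.13, 0.0948 and 0.235 for numbers 1, 2 and 3. The deviations of each of the 15 arrays correlated best, on average, with those of arrays of other groups that had its own number. This is a hint from the data and not the design. The main fit took no account of the number, so its estimate of spread may include differences shared by arrays of the same number. With the replicate number as a block, 1224 probe sets passed for SB202190 against DMSO (677 higher, 547 lower), 2615 against UO126 and 2092 against LY294002, and 0 of the 85 named genes lost the call. With the block 20 further named genes passed, among them Alpl (adjusted p = 0.00918), Ihh (0.04) and Col10a1 (0.0465), each lower with SB202190.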
